A study of Saccharomyces cerevisiae with 28 samples.

Results

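Guides against the nuclear genes of the mitochondrial ribosome were followed through droplet screens for α-amylase secretion in Saccharomyces cerevisiae. Of 60 such genes, 36 for the large and 24 for the small subunit, 12 had a guide in the lists that pair guides with genes, and the other 48 had none there. The pairs came to 14 guides of the 40890 in the library, 8 for 7 genes of the large subunit and 6 for 5 genes of the small subunit. Of these, 11 guides were paired through the list of the early activation screen and 3, for MRPL35, MRP21 and MRP10, through the list of the main activation screens. Both lists were ordered by the p-value of their own activation contrast and were held only in part, with 1995 and 461 rows. The activation contrast of a guide's own list is therefore given as a description, and the repression contrast, which neither list used, as a test.

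All cells were Ethanol Red, a commercial diploid strain that carried an α-amylase cassette integrated at the HO locus, and all were induced with anhydrotetracycline, which switches on the guide. The activation cells carried dCas9-VPR, a Cas9 without nuclease activity fused to an activator, and the repression cells dCas9-Mxi1, the same protein fused to a repressor. In each sort the most fluorescent droplets formed the high fraction, which was set against the low fraction. The early activation screen had 2 high and 2 low libraries from 1 round, the main activation screens had 8 and 8 from rounds 2 to 5, and the main repression screens had 4 and 4 from rounds 1 and 2, with 2 replicates in each round. Nothing in the labels says that replicates came from separate transformations, so p-values measure only the spread between these libraries.

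The mitochondrial ribosome translates the few proteins encoded by mitochondrial DNA, most of them membrane subunits of the respiratory chain and of the ATP synthase. Its RNAs are made inside the organelle, while nearly all of its proteins are encoded in the nucleus and imported. Loss of many of these proteins in yeast abolishes respiratory growth and is often followed by loss of mitochondrial DNA, and such cells live by fermentation.

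The guides on which the results turn are shown 5′ to 3′, with the 10 bases next to the PAM, where mismatches are tolerated least, in capitals. The first 9 were paired with their gene by the lists, and both guides of MRPL44 and of RSM19 are shown because guides of 1 gene are compared. The last pair, upstream of MRPS12 and MRPL8, were placed by position.
RSM7: ggtcacactaAATAATCGCG
MRPL51: ccaacttaatCTTTCAGATT
MRPL44 guide 1: aaaagtcttaCATGTGTAAA
MRPL44 guide 2: tatccacggaAGATATGATG
MRPL40: ctgcattgcgCATTTGTCCA
MRPL4: gggtgtacatCAAGCTGCGC
MRP21: gtacccagaaGGTGCGTGGA
RSM19 guide 1: gtgatccaaaCGCTAATGCC
RSM19 guide 2: gttatggttaGATTCTTACT
MRPS12 upstream guide: ccgagcgacaAAACGATTTG
MRPL8 upstream guide: agtaccaagaCACCCGCACG
The 14 paired guides had a GC content of 5% to 65%, with a median of 42.5%, against a median of 40% over all guides. The guide of MRPL22 had the lowest, 5%, and that of MRPL35 the highest, 65%. The longest run of T was 3 bases, in the guides of MRP20, MRPL22, MRPL40 and MRPL51.

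The libraries held 50433 to 3359719 reads. In the repression screens a read was present for 15.6% to 24.3% of all guides in the high libraries, against 44.6% to 50.6% in the low libraries. Each of the 14 paired guides was present in each of the 4 low repression libraries, while 9 to 12 of them were present in a high library. The other guides paired with any feature were present at 64.9% to 81.9% in the high and at 95.8% to 97.1% in the low repression libraries. The high library of round 2 replicate 2 stood apart, with an RLE factor of 0.0349, against 1.39 to 1.46 for the other 3 high libraries and 1.70 to 1.82 for the low ones. A low factor scales a library's counts up, and every enrichment in the repression screens described here lost its call without that sort. The same held for nearly all guides, since enriched calls fell from 720 of 13403 tested guides to 5 of 14354 without it.

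In the main repression screens, the guides of RSM7 and MRPL51 and 1 of the 2 guides of MRPL44 were called enriched, and the guide of MRPL40 was absent from the high fraction. Of the 3 enriched guides, that of RSM7 alone led in each sort by CPM. On the RLE scale, that of MRPL51 also led in 4 of 4 sorts. All 14 paired guides were tested, and 3 of them were called enriched, at a log2 FC over 3 and an FDR under 0.05, against 5.37% of all 13403 tested guides. The other guides paired with any feature, which came through the same lists, were called enriched at 7.97%. A single guide of the 14 was called depleted, against 13.5% of all tested guides and 4.46% of the other paired guides. The median log2 FC of the 14 was 1.55, against 0.01 over all tested guides and 0.28 over the other paired guides, and 71.4% of the 14 were positive, against 50.1% and 57.9%.

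RSM7 (YJR113C, chromosome X, 638232 to 638975 of the R64 assembly) encodes the mitochondrial counterpart of the small subunit protein S7, which binds the head of the small subunit. Its guide had 1068, 880, 659 and 2545 reads in the high libraries, against 304, 225, 80 and 230 in the low libraries (round 1 replicates 1 and 2, then round 2 replicates 1 and 2). As CPM, the reads per 1000000 of a library's total, this was 319, 276, 358 and 946 in the high libraries, against 90.5, 91.5, 49.9 and 85.4 in the low libraries. Each high library lay above each low one, and the guide led in the high fraction in each of the 4 sorts. Only 0.194% of the tested guides, 26 of 13403, had all high libraries above all low ones by CPM. That share was not computed for the other paired guides. Of those, 64.9% to 81.9% had a read in a high library, against 15.6% to 24.3% of all guides. For the RSM7 guide the mean was 475 ± 316 CPM over the high libraries and 79.3 ± 19.8 CPM over the low ones (SD, n = 4 each). An exact two-sided permutation test gave p = 0.0286, the smallest that 70 arrangements allow. The arrangements left the pairing by sort aside. Full separation in either direction gives this p, and all low libraries lay above all high ones for 20.3% of the tested guides. The log2 FC was 7.23 (SE 2.26), with an adjusted p of 0.011 in the likelihood ratio test of edgeR (Benjamini-Hochberg adjusted over all tested guides, as throughout). With library size alone as the scale it was 2.54, with an adjusted p of 0.121 in edgeR, and without round 2 replicate 2 it was 2.28, with an adjusted p of 0.107. With the sort as a block, since both fractions of a sort came from the same droplets, it was 3.33, with an adjusted p of 0.282 in edgeR.

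The guide of MRPL51 (YPR100W), which encodes a mitochondria-specific protein of the large subunit, was the most abundant of the 14 in the repression screens. It had 1282, 1117, 695 and 4014 reads in the high libraries, against 942, 982, 453 and 892 in the low libraries. By CPM the high fraction was above the low fraction in 3 of 4 sorts, and the ranges overlapped, with 350 to 1492 CPM in the high and 280 to 399 CPM in the low libraries. The log2 FC was 5.85 (SE 2.15, edgeR's likelihood ratio test, adjusted p = 0.0392), 0.45 without round 2 replicate 2, with an adjusted p of 0.998 in edgeR, and 1.47 with the sort as a block, with an adjusted p of 0.702. That library held 56.5% of the guide's reads in the high fraction.

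Both guides of MRPL44 (YMR225C, chromosome XIII, 720960 to 721403), a further mitochondria-specific protein of the large subunit, were tested, and their fold changes had opposite signs. Guide 2 had 7, 245, 2 and 2726 reads in the high libraries, against 114, 121, 36 and 26 in the low libraries. High and low each led in 2 of 4 sorts by CPM, and round 2 replicate 2 held 91.5% of the high reads. Its log2 FC of 8.75 (SE 2.81, edgeR's likelihood ratio test, adjusted p = 0.0144) turned to -0.17 without that sort and to -0.80 with the sort as a block (adjusted p = 0.894 in edgeR). Guide 1 had 20, 7, 35 and 1 reads in the high libraries, against 106, 79, 5 and 130 in the low libraries, and was lower in the high fraction in 3 of 4 sorts. Its log2 FC was -1.26 (SE 1.40, adjusted p = 0.763 in edgeR). The difference between the guides was not tested.

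MRPL40 (YPL173W, chromosome XVI, 223143 to 224036) encodes the counterpart of the large subunit protein L24, which lies near the exit of the polypeptide tunnel. Its guide had no read in any of the 4 high libraries, against 21, 74, 6 and 141 reads in the low libraries. Each low library lay above each high one, as it did for 20.3% of the tested guides. Against a floor of 3 reads over all high libraries, 0.271 CPM, its level in the low fraction was at least 88.3-fold higher. edgeR's likelihood ratio test gave an adjusted p of 0.000898, and the adjusted p stayed under 0.05 in all 13 other settings in which the guide was tested, in which it was at most 0.0435.

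The guides of MRPL4 and MRPL22 came nearest to the threshold from outside. MRPL4 (YLR439W), the counterpart of the large subunit protein L29, had 697, 495, 281 and 2830 reads in the high libraries, against 1240, 577, 401 and 721 in the low libraries. It was lower in the high fraction in 3 of 4 sorts by CPM, so that the log2 FC of 5.54 (SE 2.15, edgeR, adjusted p = 0.0523) rested on round 2 replicate 2, and was -0.49 without it. MRPL22 (YNL177C), the counterpart of L22 at the tunnel wall, had 521, 483, 1 and 587 reads in the high libraries, against 196, 210, 113 and 184 in the low libraries. Here the high fraction led in 3 of 4 sorts, while the high library of round 2 replicate 1 held a single read. The log2 FC was 5.29 (SE 2.09, adjusted p = 0.0568 in edgeR) and 0.75 without round 2 replicate 2. With no filter or with the CPM filter the guide was called, at adjusted p of 0.0466 and 0.0493 in edgeR.

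The other paired guides of the large subunit did not pass the test. MRP20 (YDR405W), the counterpart of L23 at the tunnel exit, had 157, 0, 0 and 0.372 CPM in the high libraries, against 15.8, 21.9, 23.1 and 18.9 CPM in the low libraries. MRPL35 (YDR322W), a mitochondria-specific protein, had 0.299, 74.3, 0 and 0 CPM in the high libraries, against 19.6, 18.3, 24.3 and 29.3 CPM in the low libraries. In both, 1 library held over 99% of the high reads (99.8% for MRP20 and 99.6% for MRPL35), and the low libraries lay close together. The log2 FC was 1.39 (SE 1.87) for MRP20 and 0.09 (SE 1.76) for MRPL35, with adjusted p of 0.833 and 0.993 in edgeR.

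In the small subunit, RSM7 was the only paired gene with a called guide in the main repression screens. MRP10 (YDL045W-A), a protein with twin CX9C motifs that is oxidised on import, had 484, 437, 0 and 264 reads in the high libraries, against 179, 147, 222 and 285 in the low libraries, and a log2 FC of 3.84 (SE 1.86, adjusted p = 0.148 in edgeR). High and low led in 2 of 4 sorts each by CPM, and in 3 and 1 on the RLE scale. The means were 94.95 ± 66.5 CPM in the high and 89.3 ± 40.3 CPM in the low libraries (SD, n = 4 each). With library size alone the log2 FC was 0.047, and without round 2 replicate 2 it was 0.39. RSM25 (YIL093C), a mitochondria-specific small subunit protein, had 452, 386, 0 and 0 reads in the high libraries, against 548, 193, 143 and 267 in the low libraries. Both of its high libraries of round 2 were without a read, and the log2 FC was -0.43 (SE 1.44, adjusted p = 0.956 in edgeR). The rounds went apart, with a log2 FC of -10.14 without round 1, which was called depleted (adjusted p = 0.00306 in edgeR), and of 0.26 without round 2.

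RSM19 (YNR037C, chromosome XIV, 695052 to 695327), the counterpart of the small subunit protein S19, had a pair of guides. Guide 1 had 605, 509, 111 and 0 reads in the high libraries, against 157, 80, 17 and 170 in the low libraries. The high fraction led in 3 of 4 sorts. Guide 2 had 197, 535, 792 and 2 reads in the high libraries, against 382, 106, 281 and 350 in the low libraries, and was higher in 2 of 4 sorts. Both had 0 or 2 reads in the high library of round 2 replicate 2, in which RSM7 and MRPL51 had their highest counts. The log2 FC was 1.71 (SE 1.28, adjusted p = 0.504 in edgeR) for guide 1 and 0.84 (SE 1.08, adjusted p = 0.817 in edgeR) for guide 2. MRP21 (YBL090W), the counterpart of S21, had 0, 0, 39 and 0 reads in the high libraries, against 42, 53, 25 and 74 in the low libraries, and a log2 FC of -1.43 (SE 1.73, adjusted p = 0.800 in edgeR). A single high library held all 39 high reads, and the guide was called depleted without that sort, at -8.53 (adjusted p = 0.000808 in edgeR), and without round 2, at -8.62 (adjusted p = 0.00105 in edgeR).

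Summed over the 14 guides, the repression high libraries held 1751, 1672, 1419 and 4822 CPM, against 1295, 1197, 1159 and 1337 CPM in the low libraries. Each high library lay above each low one. Without the guide of RSM7 the sums were 1432, 1396, 1062 and 3876 CPM in the high libraries, against 1204, 1106, 1109 and 1252 CPM in the low libraries, and the ranges overlapped. The other paired guides summed to 325109 to 341747 CPM in the high and 322470 to 342920 CPM in the low libraries.

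In the main activation screens 5 of the 14 paired guides had enough reads to be tested, all of them from the early list, and 3 of these were called enriched, those of MRPL44, RSM7 and MRPL4, against 69.5% of all 1166 tested guides. Among the other guides paired through the early list alone, 59.4% were called enriched. None of the 5 was called depleted, against 3.34% of all tested guides and 3.42% of those other guides; no guide was lower at an unadjusted p under 0.05 by edgeR's likelihood ratio test, by its quasi-likelihood test or by DESeq2 (0 of 5 each). The median log2 FC was 3.30 over the 5 guides, 4.68 over all tested guides and 3.83 over the other guides of the early list. Since the RLE factors put the median tested guide at 4.68, TMM factors at 2.14, DESeq2 at -0.06 and library size alone at -0.60, each log2 FC here is read against that median.

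Guide 1 of MRPL44 had 0 to 8746 reads in the 8 high libraries, with a median of 22.5, against 0 to 1149 reads in the 8 low libraries, with a median of 3.5. The high libraries of round 2 replicate 1 and round 4 replicate 2 had 8746 and 2254 reads, beside 1149 and 2 in their low libraries. In round 5 replicate 2 it had 755 reads in the high library, against 49 in the low library. By CPM the high fraction led in 5 sorts and the low fraction in 2, and the ranges overlapped. The log2 FC was 5.33 (SE 1.73, edgeR's likelihood ratio test, adjusted p = 0.00466), above the median of all tested guides, and 1.26 with library size alone, with an adjusted p of 0.674 in edgeR.

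RSM7 had 0 to 1043 reads in the high libraries, with a median of 4, against 0 to 476 reads in the low libraries, with a median of 100.5. The high library of round 2 replicate 1 held 97.8% of the high reads, and the low fraction led in 5 of 8 sorts by CPM. Its log2 FC of 4.36 (SE 1.58, edgeR's likelihood ratio test, adjusted p = 0.010) lay below the median of all tested guides, and was -0.32 by DESeq2, -0.38 with library size alone and 1.47 with the sort as a block (adjusted p = 0.688 in edgeR). MRPL4 had 1 to 985 reads in the high libraries, with a median of 3.5, against 14 to 1110 reads in the low libraries, with a median of 111.5. It was lower in the high fraction in 7 of 8 sorts, with 96.6% of the high reads in round 4 replicate 2, and without that sort its log2 FC of 3.30 (SE 1.49, edgeR, adjusted p = 0.0367) was -0.93. With the sort as a block it was 0.12 (adjusted p = 0.972 in edgeR).

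The remaining tested guides were those of MRPL51 and of RSM19, guide 2, and both were lower in the high fraction in 8 of 8 sorts by CPM. MRPL51 had 0 to 1069 reads in the high libraries, with a median of 5.5, against 7 to 1145 reads in the low libraries, with a median of 226.5. Its log2 FC on the RLE scale was 2.86 (SE 1.48, adjusted p = 0.0655 in edgeR), below the median of all tested guides, and -2.95 with library size alone. RSM19 guide 2 had 0 to 7 reads in the high libraries, with a median of 1.5, against 3 to 562 reads in the low libraries, with a median of 130.5. Its log2 FC was -0.65 (SE 0.98, adjusted p = 0.522 in edgeR), the lowest of the 5. With library size alone it was called depleted, at -5.79 with an adjusted p of 0.000543 in edgeR.

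The other 9 guides did not pass the filter on low counts in the main activation screens. MRP21 had no read in any high library, against 1, 303, 130, 74 and 294 reads in 5 low libraries and none in the other 3. Over all guides, 33.3% had a read in a main activation high library and 47.2% in a low one. Over all libraries its level in the low fraction was at least 386-fold higher than the floor of 3 reads, 0.257 CPM, in the high fraction. MRP20 had 2 high and 434 low reads, a ratio of low over high of 313 (95% exact binomial interval 86.2 to 2594, counting error only). MRPL22 had 8 high and 776 low reads, and RSM19 guide 1 had 10 and 302.

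MRPL35 and MRP10 went the other way, each through 1 high library. MRPL35 had 2840 high reads, of which round 4 replicate 1 gave 2797, and 341 low reads, of which the same sort gave 309. MRP10 had 663 high reads, with 659 from round 3 replicate 2, and 36 low reads. RSM25 had 537 high reads, with 529 from round 5 replicate 2, and 2764 low reads, so that the low fraction led in total. MRPL44 guide 2 had 21 high and 3 low reads, and MRPL40 had 1 and 3.

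In the early activation screen 5 of the 14 paired guides had no read in either high library, and 4 of these were called depleted. Over all guides, only 13.2% had a read in either high library. The other guides paired with any feature were present at 49.3% to 52.7% in a single early high library. The thresholds were a log2 FC beyond 8 in size and an FDR under 0.1, and 12 of the 14 guides were tested. The 4 depleted guides stood against 21.2% of all 3215 tested guides, and none of the 12 was called enriched, against 1.21%. For 11 of the 12 tested guides this contrast belongs to the list that chose them, so that the counts are a description and nothing is read from them.

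MRP21 was chosen through the main list, so that the early screen is a test for it. It had 0 and 0 reads in the high libraries, against 16 and 475 in the low libraries. Its level in the low fraction was at least 183-fold higher than a floor of 3 reads in the high fraction, 0.994 CPM, and edgeR's likelihood ratio test gave an adjusted p of 0.0797. The call was lost with the sort as a block (adjusted p = 0.257 in edgeR) and with the quasi-likelihood test (0.265). It was also lost with no filter (0.446) and with the CPM filter (0.129). At a prior count of 2 the log2 FC was -7.10, inside the threshold. Over all guides, the block, no filter and the CPM filter gave no call in this screen. There the quasi-likelihood test gave 41 depleted guides and a prior count of 2 gave 20, against 681 with the settings of the report. The main activation reads of MRP21 belong to the list that chose it, so they are a description and add nothing to this test. MRPL35 and MRP10, the others of the main list, were not tested, with 0 and 0 reads in the high against 31 and 0 in the low libraries for MRPL35, and 1607 and 0 in the high against 5 and 1 in the low libraries for MRP10.

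The early values of the 11 guides of the early list are a description. MRPL44 guide 1 had 0 and 0 reads in the high libraries, against 755 and 2191 in the low libraries, and RSM19 guide 2 had 0 and 0, against 106 and 569. MRP20 had 0 and 0 reads in the high libraries, against 422 and 54 in the low libraries. MRPL44 guide 1 was thus absent from the early high fraction and abundant in the high fraction of 3 later sorts. MRPL51 was the only guide of the 11 with reads in each early library and the high fraction above the low in both sorts, with 3075 and 459 reads in the high against 416 and 51 in the low libraries.

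For 4 more guides of the early list, reads lay mostly in 1 library of a fraction. MRPL40 had 0 and 795 reads in the high libraries, against 671 and 0 in the low libraries, and RSM7 had 556 and 2, against 106 and 1366. MRPL44 guide 2 had 0 and 1040 reads in the high libraries, against 0 and 103 in the low libraries, and RSM19 guide 1 had 613 and 0, against 275 and 0. MRPL4 had 254 and 2 reads in the high libraries, against 1185 and 64 in the low libraries, and the low fraction led in both sorts by CPM. In MRPL22 and RSM25 the high fraction was nearly empty, with 0 and 2 reads in the high against 119 and 84 in the low libraries for MRPL22, and 0 and 1 in the high against 614 and 55 in the low libraries for RSM25.

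A further set of guides was placed by position, since 1999 guides of the library (4.89%) carry a listed genome position. Which base of a guide the position marks is not given in the sources used here, so distances to a start are approximate. Of these, 12 lay from 250 bases before to 50 after the start of 10 of the 60 genes, and 21 lay from 400 before to 100 after the start of 19 genes. With these, 28 of the 60 genes had a guide. No early or main activation contrast of the 12 could be tested, and 6 of them, for MRPL16, MRPL38 (both guides), MRPL51, RSM23 and MRPS35, had no read in any of the 28 libraries. Over all guides 62.2% had a read in some library, against 50% of the 12. The upstream guide of MRPL11 had 2159 high and 58 low reads in the main activation screens. That of MRPL19, in the wider window, had 1189 and 295 there. A single library held 99.8% and 99.4% of these high reads. The upstream guides of MRPL8, MRPL49 and RSM24 had 2, 0 and 16 high reads there, against 167, 127 and 368 low reads.

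MRPS12 encodes the counterpart of S12, the small subunit protein of the decoding centre. The guide 77 bases before its start had 0, 1, 0 and 0 reads in the high repression libraries, against 70, 96, 69 and 123 in the low libraries. All low libraries lay above all high ones, as for 20.3% of the tested guides. The ratio of low over high was 392 (95% exact binomial interval 69.9 to 15514, counting error only), and the log2 FC of high over low was -7.57 (SE 2.00, edgeR's likelihood ratio test, adjusted p = 0.00175). It was the only called guide of the 2 tested in the narrower window, against 13.5% of all tested guides called depleted. The other, 226 bases before MRPL11 and also in the window of ACK1, had 0, 5, 260 and 1 reads in the high libraries, against 152, 90, 67 and 55 in the low libraries (log2 FC 0.40, SE 1.67, adjusted p = 0.967 in edgeR).

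In the wider window 6 guides were tested in the repression screens and 3 were called depleted, the 2 beside MRPS12 being those of MRPL8 and MRPL49, against 13.5% of all tested guides. The guide 287 bases before MRPL8, which also lies in the window of COA3, had no read in the high libraries and 89 in the low libraries, at least 32.5-fold more (adjusted p = 0.000697 in edgeR, and 0.0516 with the sort as a block). The guide 271 bases before MRPL49 had 1 read in the high libraries and 223 in the low libraries, a ratio of low over high of 244 (95% exact binomial interval 43.3 to 9680), with a log2 FC of -5.72 (SE 2.15, adjusted p = 0.0441 in edgeR). That call was lost with the sort as a block (adjusted p = 0.124 in edgeR), with the quasi-likelihood test (0.240), with no filter (0.160), with the CPM filter (0.0551), without round 1 (0.0861), without either sort of round 1 (0.140 and 0.0967) and without round 2 replicate 1 (0.128). MRPL17 and RSM24 had a log2 FC of 0.80 (SE 1.22) and 1.96 (SE 1.32), with adjusted p of 0.869 and 0.412 in edgeR. The guide of RSM24 also lies in the window of NGG1, and that of MRPL19 in the window of YNL184C. In the early activation screen the upstream guide of MRPL19 had 520 high and 43 low reads, each in 1 library. Its log2 FC there was 5.56 (SE 3.51, adjusted p = 0.249 in edgeR). The upstream guide of RSM24 had 0 high and 103 low reads in that screen.

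MRP10 and RSM25 had guides of both kinds with reads in the repression screens. The upstream guide of MRP10 had no read in the high libraries and 3, 28, 77 and 54 in the low libraries, at least 59.1-fold more in the low fraction, while the paired guide of MRP10 had up to 484 reads in a high library. The upstream guide of RSM25, which is also in the window of YIL092W, had no read in the high libraries and 53, 5, 37 and 13 in the low libraries, at least 39.4-fold more, while the paired guide had 452 and 386 reads in the high libraries of round 1. Over all guides, 38.3% had a read in a high repression library, against 57.2% in a low one. Neither upstream guide passed the filter, and the differences were not tested.

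Other genes of mitochondrial translation were examined as a list of 43 factors, aminoacyl-tRNA synthetases, translational activators and assembly proteins, of which 13 genes had 14 paired guides. In the repression screens 13 of these guides were tested and none was called in either direction, with 0 at an unadjusted p under 0.05 by edgeR's likelihood ratio test, by its quasi-likelihood test or by DESeq2. The background was 5.37% enriched and 13.5% depleted over all tested guides, and 7.97% and 4.46% over the other paired guides. The median log2 FC of the 13 guides was 0.00, against 1.55 for the ribosomal protein guides. In the main activation screens 3 were tested and 2 were called depleted, against 3.34% of all tested guides and 3.42% of the other guides of the early list. They were those of MTG1, a GTPase of ribosome assembly (21 high and 8360 low reads, log2 FC -3.56, SE 1.37, adjusted p = 0.0152 in edgeR), and NAM2, the mitochondrial leucyl-tRNA synthetase (4 high and 1350 low reads, log2 FC -3.03, SE 1.14, adjusted p = 0.0131 in edgeR). Whether the lists differ was not tested.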

How the data were processed

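Demultiplexed reads were mapped by the authors to the padded sequences of the guides with BWA, and the deposited values are raw counts of reads per guide and library; sacCer3 is named in the submitters' processing notes. Value columns not used numbered 0. High and low fractions were compared from these counts with edgeR 4.0.16 in R 4.3.3, separately in each screen, with filterByExpr, RLE factors, glmFit and glmLRT. The prior count was 0.125, p-values were adjusted by Benjamini-Hochberg over all tested guides, each library of a fraction counted as a replicate, as in the study's methods, and the SE is the log2 FC over the root of the likelihood ratio. CPM are reads per 1000000 of a library's total, which ranged from 50433 to 3359719. Without molecular identifiers, PCR reads do not count independent molecules, so intervals and floors of 3 reads cover counting error only. Counts were simulated with 200 guides changed by a log2 FC of 5 and a set dispersion not taken from the data. Of these guides, 94% were recovered in the early screen (3215 guides) and 100% in the main activation (1166) and repression (13403) screens. The shares do not measure recovery at the spread of the real libraries.

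The members and gene lists were chosen with earlier results of these data known. Every paired guide is named. Of guides placed by position, the rule took per screen up to 5 called guides at each end of the log2 FC. It also took those with most reads in each library type. Other uncalled ones were chosen after their values were seen. Promoter windows were to be searched by sequence; since no genome was used here, listed positions served instead, and of 67 guides with both a position and a paired gene, 67 lay on that gene's chromosome. Gene names and coordinates come from the RefSeq gene table of R64. Per the study, droplets outside the high gate formed the low fraction, so both libraries of each sort are paired by round and replicate number, although their deviations hardly correlated (-0.04 to 0.13 in the main activation, -0.00 to 0.03 in the repression screens). The study's fit had no block. Alternatives were glmQLFTest, DESeq2 1.42.0, TMM factors, no filter, a CPM over 1 filter, a prior count of 2, a replicate block, left-out sorts and rounds, and summed replicates. Library size alone and the wider window were added after seeing the data.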

Additional observations from a re-analysis of the deposited data

Results flagged for a closer look

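The 54 sets of 4 or 8 libraries of 1 guide, fraction and main screen were checked by Dixon's 95% limit on log2(CPM + 1). In 18 of them a library stood apart from the others. The limit assumes normal values, and where all other libraries were at 0 a single read passes it, so no rate by chance is given. Of the 18, 14 were high fractions, 7 in the activation and 7 in the repression screens, and 4 were low fractions.

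In the high fraction of the main activation screens, 1 library stood above the rest for 7 guides. RSM7 had 1065 CPM in round 2 replicate 1, with the next library at 9.71 CPM. MRP10 had 577.9 CPM in round 3 replicate 2 (next 4.86) and RSM25 had 251.8 CPM in round 5 replicate 2 (next 4.86). MRPL44 guide 2 had 12.28 CPM and MRPL22 had 6.138 CPM, both in round 3 replicate 2. MRPL40 had 0.877 CPM in that library and MRP20 0.952 CPM in round 5 replicate 2, which are 1 and 2 reads. In the low fraction, MRPL44 guide 2 had 19.83 CPM in round 2 replicate 2 and MRPL40 had 2.004 CPM in round 3 replicate 2, which are 1 and 3 reads.

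In the high fraction of the repression screens, MRPL51 had 1492 CPM and MRPL4 1052 CPM in round 2 replicate 2, with the next libraries at 383 and 208 CPM. MRP20 had 157.2 CPM in round 1 replicate 1, MRPL35 had 74.31 CPM in round 1 replicate 2, and MRP21 had 21.17 CPM in round 2 replicate 1, with the other libraries under 1 CPM. In round 2 replicate 1, MRPL22 with 0.543 CPM and MRP10 with 0 CPM stood below the rest. In the low fraction of that sort, MRPL44 guide 1 with 3.119 CPM and RSM7 with 49.9 CPM stood below the rest.

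By CPM, MRPL51 was higher in the high fraction in both sorts of the early activation screen, with a mean of 1019 CPM in the high and 141.9 CPM in the low fraction. By CPM it was lower in the high fraction in each of the 8 sorts of the main activation screens. On the RLE scale each fraction led in 4 of those 8 sorts, and the log2 FC was positive in both screens, 7.61 and 2.86. The difference between the screens was not tested.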

How the results depend on the processing

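Of the 14 paired guides, 4 were called in the repression screens with the settings of the report, and 1 with edgeR's quasi-likelihood test, with DESeq2 (which gave an adjusted p for 7 of them), with the replicate block and with library size alone; that guide was MRPL40. Leaving out round 2 gave 2, and leaving out 1 sort gave 1 to 4, with 2 without round 1 replicate 1 and 1 without round 2 replicate 2. In the main activation screens 3 guides were called, and 1 with DESeq2, with the replicate block, with library size alone (RSM19 guide 2, depleted), without round 2, without round 5, and with summed replicates. Leaving out 1 sort gave 1 to 3 calls, with 1 without either sort of round 2 and 1 without round 5 replicate 2. In the early screen 4 guides were called, against 0 with the quasi-likelihood test and 1 with a prior count of 2. No filter, the CPM filter and the replicate block gave 0, as they did over all guides of that screen. Leaving out a sort there left 1 library a fraction, and no test was made. Of guides placed by position, 1 was called in the repression screens, 3 in the wider window, 3 with no filter, 2 with the CPM filter, 3 without round 1 and 3 with summed replicates, and 1 to 2 without 1 sort, with 2 without round 1 replicate 1 and 2 without round 1 replicate 2. In the main activation screens 1 of them was called with no filter, against 0 otherwise.

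Among single guides, the main activation log2 FC of MRPL4 turned to -0.19 with DESeq2, -2.17 with library size alone, -0.93 to 3.82 without 1 sort (lowest without round 4 replicate 2) and -1.02 without round 4. That of MRPL51 turned to -0.50 with DESeq2, -0.47 with TMM factors, -0.14 with the replicate block, -2.95 with library size alone, -0.55 to 3.31 without 1 sort (lowest without round 4 replicate 2) and -0.71 without round 4. RSM7 turned to -0.32 with DESeq2 and -0.38 with library size alone. In the repression screens MRPL35 turned to -0.31 with TMM factors, -4.86 with the replicate block, -0.33 with library size alone, -6.49 to 0.65 without 1 sort (lowest without round 1 replicate 2), -8.33 without round 1 and -0.13 with summed replicates. MRP20 turned to -3.10 with the replicate block, -4.94 to 1.95 without 1 sort (lowest without round 1 replicate 1) and -4.00 without round 1. MRPL4 came to -0.49 to 6.23 without 1 sort and -0.55 without round 2, and MRPL44 guide 2 to -0.17 to 9.37 without 1 sort, both lowest without round 2 replicate 2, and -0.80 with the replicate block. RSM25 turned to 0.26 without round 2. The upstream guide of MRPL11 turned to -0.11 with TMM factors, -2.40 with the replicate block, -0.049 with library size alone, -3.62 to 1.04 without 1 sort, the lowest without round 2 replicate 1, and -5.45 without round 2. That of RSM24 turned to -0.22 with the replicate block, -0.0066 without round 1 and -0.54 to 2.71 without 1 sort, the lowest without round 1 replicate 2. Of the other 357 values of single guides under the alternatives, 297 kept their direction and their side of the threshold, 52 lost it and 8 gained it. The cause was not tested.

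With the sort as a block, the replicate block, the calls over all guides came to 13 enriched and 19 depleted in the main activation, 0 and 1295 in the repression and 0 and 0 in the early screen. Scaling moved these calls too. In the repression screens there were 720 enriched and 1812 depleted guides with RLE factors, 105 and 1984 with TMM factors, and 14 and 1981 with library size alone. In the main activation screens there were 810 and 39 with RLE factors, 452 and 112 with TMM factors, and 22 and 276 with library size alone. Depth limits the low counts, since 3 reads correspond to 0.893 to 59.5 CPM in a main screen library.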
